A study of Mus musculus with 6 samples.

Results

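The 7 genes described here encode 6 enzymes of cholesterol synthesis, Hmgcs1, Idi1, Fdft1, Sqle, Cyp51 and Msmo1, and a regulator of that synthesis, Insig1. They were taken by symbol from a table of 10189 genes measured by RNA-seq in mouse chondrocytes, and each of the 7 symbols had 1 row. None of the 7 encodes an uptake receptor, so uptake is described from a separate list. The samples were chondrocytes, which make and keep the matrix of cartilage, isolated from C57BL/6 mice at an age of 5 weeks and grown as primary cultures. The KO group (3 samples) was homozygous for a global deletion of the microRNA gene Mir34a (genotype MiR-34a -/-, model Mir34atm1.2 Mrl), and the wild-type group (3 samples) carried the normal gene. In both groups cartilage of knees and hips was pooled and digested, and the cells were grown to confluence in medium with 10% serum and given no treatment. The deletion was present in every cell of the animal, so the cells had developed without the microRNA before they were cultured. Whether each sample is a separate animal or culture is not said in the labels, so the p-values reflect the spread among these 6 samples, part or all of which may be technical.

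Cells build cholesterol from acetyl units: the mevalonate steps make isoprenoid building blocks, farnesyl diphosphate units are joined to squalene, and squalene is closed into a ring and trimmed to cholesterol. The transcription factor SREBP2 switches on nearly all of these enzymes, together with genes of sterol uptake, when membrane sterol is low. When sterol is high, INSIG proteins hold SREBP2 and its escort SCAP in the endoplasmic reticulum, and INSIG1 is itself a target of the factor. Chondrocytes grown with serum can also take up sterol from lipoproteins, and serum sterol is known to lower the expression of the pathway.

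From the deposited values, 989217 to 5266617 reads per library were recovered, and 947081 to 1772185 without the 3 rows Rn45s, Lars2 and Mir6236. Rn45s, the ribosomal RNA precursor, took 59.1% of the reads of wild type 1. Mir34a has no row, so the table holds no check of the genotype on the deleted gene itself. The chondrocyte markers Col2a1 and Comp were present in all 6 libraries, at 801 to 1985 and 489 to 2293 CPM, and the macrophage marker Lyz2 was also present, at 594 to 12165 CPM. The library kit keeps the strand of the RNA, but the sources used here do not give the strand that was counted. The ratio of Tsix to Xist, which it overlaps in antisense, was 8.12 to 16.5 across the libraries. The reads of a gene and of a gene opposite its exons therefore cannot be told apart. Gapdh had 47.0 to 72.9 CPM and Actb 1582 to 2603 CPM across the libraries. Whether the rows hold reads of each gene's own strand was not tested, also where no gene lies opposite. CPM is the TMM-normalized read count of a gene relative to library size. A log2 fold change is the KO mean minus the wild-type mean of log2(CPM + 0.5), a scale on which differences of weakly expressed genes come out too small.

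The upstream sequences of 3 of the 7 genes are shown because SREBP2 acts through short elements there, usually beside sites for NF-Y and Sp1. RefSeq (GRCm38.p6) gave a promoter for 5 of the 7, all but Fdft1 and Sqle. Searched on both strands were CACNCCAC, a sterol regulatory element core, CCAAT, the NF-Y box, and GGGCGG, the Sp1 box. None of these overlapped another in the stretches printed. Capitals mark the matches, and each stretch ends at the most upstream start that RefSeq or GENCODE gives the gene. Those of Hmgcs1 (chr13:119690101-119690350, + strand), Insig1 (chr5:28071162-28071362, + strand) and Cyp51 (chr5:4104747-4104947, - strand) read:
Hmgcs1: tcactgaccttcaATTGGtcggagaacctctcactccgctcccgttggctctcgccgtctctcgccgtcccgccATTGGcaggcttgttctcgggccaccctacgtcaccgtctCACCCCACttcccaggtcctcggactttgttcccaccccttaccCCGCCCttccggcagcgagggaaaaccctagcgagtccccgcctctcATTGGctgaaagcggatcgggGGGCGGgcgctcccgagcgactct
Insig1: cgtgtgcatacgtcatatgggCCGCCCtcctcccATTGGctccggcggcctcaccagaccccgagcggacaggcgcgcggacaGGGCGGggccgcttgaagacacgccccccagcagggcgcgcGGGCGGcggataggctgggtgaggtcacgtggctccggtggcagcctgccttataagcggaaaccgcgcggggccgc
Cyp51: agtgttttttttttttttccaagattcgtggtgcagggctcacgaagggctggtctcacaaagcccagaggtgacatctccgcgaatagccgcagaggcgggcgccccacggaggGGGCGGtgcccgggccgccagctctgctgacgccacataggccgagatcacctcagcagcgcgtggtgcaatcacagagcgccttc
Over the window from 250 bases before to 50 bases after the RefSeq start, CACNCCAC was found in 2 of the 5 promoters, those of Hmgcs1 and Insig1. It was found in 6.24% of all 32851 promoters and in 6.33% of the 9845 promoters of measured genes. The Hmgcs1 match, CACCCCAC, begins 136 bases before the start, and the Insig1 match, GTGGCGTG, is on the reverse strand 9 bases before its RefSeq start and so lies beyond the stretch printed. CCAAT was found in 5 of 5, against 37.4% of all promoters and 37.1% of those of measured genes. GGGCGG was found in 5 of 5, against 35.7% and 62.1%. All CCAAT matches of Cyp51, Idi1 and Msmo1 lie past the most upstream start that RefSeq or GENCODE gives the gene. So do all GGGCGG matches of Idi1 and Msmo1. A match is a description of letters, not of a bound site.

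The deleted microRNA is shown with its seed, bases 2 to 8 counted from the 5′ end, in capitals, because a seed match in a 3′ UTR is the usual mark of a direct target. MiR-34a-5p lies at chr4:150068473-150068494, + strand:
miR-34a-5p: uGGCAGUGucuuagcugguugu
The seed match CACTGCC was present in the 3′ UTR of 1 of the 7 genes, against 17.9% of 9343 genes with an annotated 3′ UTR. The gene was Fdft1, at base 1229 of 1600, and the capitals in the next line mark the match:
Fdft1: atggtgatccCACTGCCtcagccttct
The mean of Fdft1 itself was lower in KO.

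Of the 7 genes, 6 had a lower mean in KO, with KO means at 37.2% to 72.6% of wild type, and Msmo1 had about the same mean in both genotypes. None of the 7 passed limma at an adjusted p below 0.05, where 0.00981% of all 10189 rows did. At an unadjusted p below 0.05, 6 of the 7 were lower and 0 higher, where 6.4% of all rows were lower and 4.64% higher. In the same 6 genes the highest KO library lay below the lowest wild-type library, which was so for 9.57% of all rows. Over the 7 the median log2 fold change was −0.92, against 0.02 over all rows. The 7 were chosen with earlier results of these data known, so the shares of all rows do not measure chance. Outside the 7, 2 of 13 measured enzymes of sterol synthesis were lower at an unadjusted p below 0.05, with a median of −0.18. In bulk RNA, fewer cells of a type and less RNA per cell cannot be told apart. Recovered reads gave 0 of 7 adjusted calls with edgeR's quasi-likelihood test (0.0196% of rows called), 0 of 7 with limma-voom (0.00981%), and 0 of the 4 genes to which DESeq2 gave an adjusted p (2.66% of rows called).

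**Figure D1:**
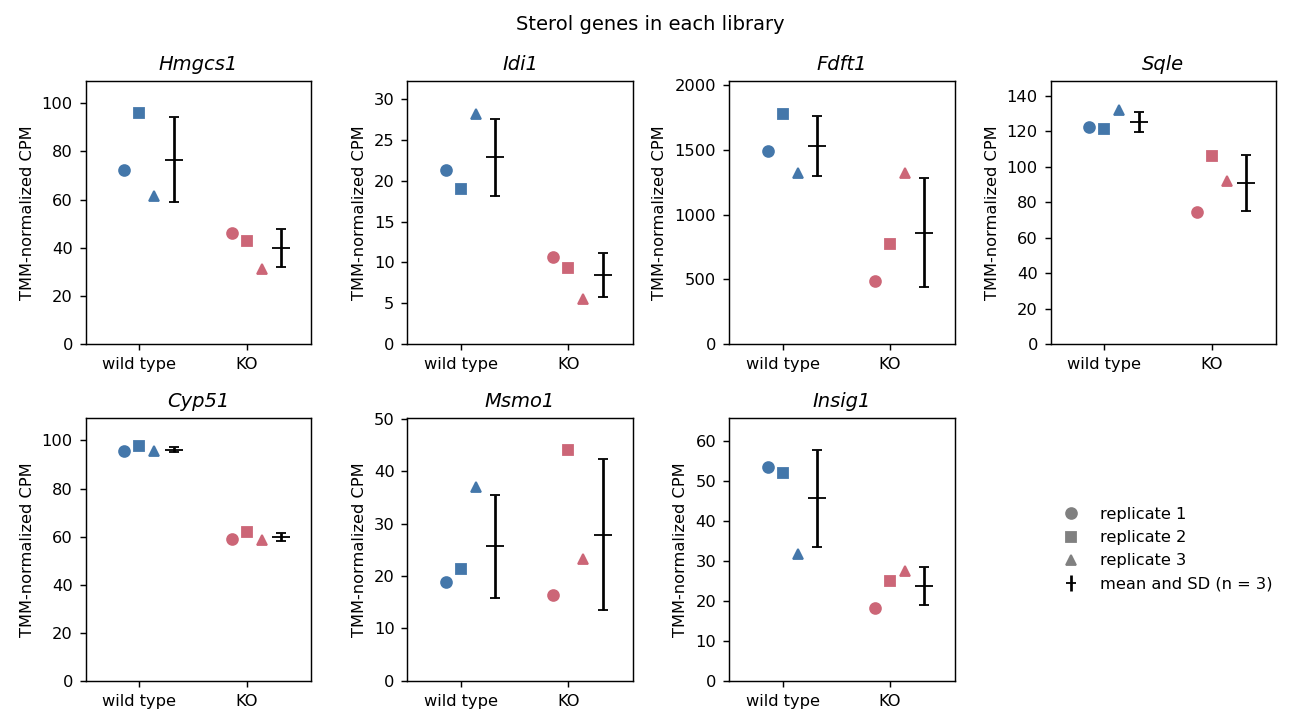
TMM-normalized CPM (vertical axes, each from 0) of the 7 genes in the 3 wild-type and 3 KO libraries, marked by replicate number, with the mean and SD (n = 3) beside them. The KO points lie below all wild-type points in 6 panels, in that of Fdft1 by 0.306 CPM, and the groups overlap in that of Msmo1.

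Among the mevalonate enzymes, Hmgcs1 condenses acetyl-CoA with acetoacetyl-CoA to HMG-CoA, an early intermediate of the pathway. Hmgcs1 (GeneID 208715, chr13:119690379-119708260, + strand, mm10) had 72.2, 96.0 and 61.6 CPM in wild type 1, 2 and 3 and 46.2, 42.6 and 31.2 CPM in KO 1, 2 and 3. The groups did not overlap, with wild type 2 highest and KO 3 lowest. Its means were 76.6 ± 17.6 CPM (SD, n = 3) for wild type against 40.0 ± 7.83 CPM (SD, n = 3) for KO. The log2 fold change was −0.92 (SE 0.26, 95% interval −1.50 to −0.35, adjusted p by limma = 0.282). Between 51 and 126 reads per library lay behind these values.

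Idi1 interconverts isopentenyl and dimethylallyl diphosphate, the isoprenoid building blocks. Idi1 (GeneID 319554, chr13:8885501-8892451, + strand) had 21.4, 19.0 and 28.1 CPM in the wild-type libraries and 10.7, 9.31 and 5.51 CPM in the KO libraries, in replicate order. All 3 KO libraries were low and the groups did not overlap. The means were 22.8 ± 4.73 CPM (SD, n = 3) and 8.50 ± 2.68 CPM (SD, n = 3), and the log2 fold change of −1.41 (SE 0.40, adjusted p by limma = 0.283) was the most negative of the 7. Idi1 also had the fewest reads of the 7, 9 to 48 per library.

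Fdft1, squalene synthase, joins farnesyl diphosphate units to squalene and so commits the pathway to sterols. Fdft1 (GeneID 14137, chr14:63145150-63179578, - strand) had 1488, 1779 and 1320 CPM in the wild-type libraries and 487, 775 and 1319 CPM in the KO libraries. KO 1 and KO 2 were far below every wild-type library, while KO 3 equalled wild type 3 to within 0.306 CPM, which is less than 1 read. The means were 1529 ± 232 CPM (SD, n = 3) and 860.5 ± 423 CPM (SD, n = 3), with a log2 fold change of −0.94 (SE 0.33, adjusted p by limma = 0.354). The log2 fold change was −1.30 without KO 3 and −0.59 without KO 1. In each of the 3 other scalings tried, the Fdft1 groups overlapped.

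Sqle, squalene epoxidase, adds the oxygen on which ring closure starts and is a rate-limiting step after squalene. Sqle (GeneID 20775, chr15:59315077-59331192, + strand) had 122.5, 121 and 132 CPM in the wild-type libraries and 74.4, 106 and 91.8 CPM in the KO libraries. The wild-type libraries lay close together and the KO libraries were all lower. With means of 125 ± 5.87 CPM (SD, n = 3) and 90.8 ± 16.0 CPM (SD, n = 3), the log2 fold change was −0.47 (SE 0.20, adjusted p by limma = 0.428). Sqle was the gene least often below an unadjusted p of 0.05 among the 6: it stayed below in 1 of the 6 fits that left out a library.

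Cyp51 removes the 14-alpha-methyl group of lanosterol, the first step after ring closure. Cyp51 (GeneID 13121, chr5:4081145-4104746, - strand) had 95.5, 97.5 and 95.6 CPM in the wild-type libraries and 59.2, 61.7 and 58.7 CPM in the KO libraries. It showed the tightest replicates of the 7, with means of 96.2 ± 1.15 CPM (SD, n = 3) and 59.9 ± 1.63 CPM (SD, n = 3). The log2 fold change was −0.68 (SE 0.18, 95% interval −1.09 to −0.27, adjusted p by limma = 0.281). It ranged from −0.70 to −0.67 when single libraries were left out.

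Msmo1 acts later in the pathway and helps remove the methyl groups at carbon 4. Msmo1 (GeneID 66234, chr8:64718139-64733792, - strand) had 18.8, 21.3 and 36.9 CPM in the wild-type libraries and 16.4, 44.1 and 23.2 CPM in the KO libraries. The groups overlapped, and the highest value was in KO 2. Its means were 25.7 ± 9.81 CPM (SD, n = 3) and 27.9 ± 14.4 CPM (SD, n = 3), and the log2 fold change of 0.06 (SE 0.41, 95% interval −0.87 to 0.99, adjusted p by limma = 0.965) does not exclude a change of the size seen in Cyp51. Without KO 2 the Msmo1 value was −0.32, and without KO 1 it was 0.37.

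Insig1, the regulator that retains the SREBP2 and SCAP complex, is itself induced by SREBP2. Insig1 (GeneID 231070, chr5:28071363-28078662, + strand) had 53.4, 51.8 and 31.7 CPM in the wild-type libraries and 18.3, 25.0 and 27.5 CPM in the KO libraries. The groups did not overlap, but wild type 3 lay 4.13 CPM above KO 3. The means were 45.6 ± 12.1 CPM (SD, n = 3) and 23.6 ± 4.76 CPM (SD, n = 3), with a log2 fold change of −0.92 (SE 0.30, adjusted p by limma = 0.323).

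Per kilobase of exon, the row of Fdft1 had by far the highest level, 362 CPM per kb in wild type and 204 CPM per kb in KO. Fdft1 shares 774 exon bases with Ctsb on the opposite strand, and the reads of the genes cannot be told apart there. This level may therefore not be that of Fdft1 RNA alone. The wild-type level per kb was 22.6 for Sqle, 21.8 for Cyp51, 16.7 for Hmgcs1, 14.8 for Insig1, 6.52 for Idi1 and 4.18 for Msmo1. Sqle and Cyp51 overlapped across the wild-type libraries, as did Hmgcs1 and Insig1, and Idi1 and Msmo1. In KO the level per kb was 16.4 for Sqle, 13.6 for Cyp51, 8.71 for Hmgcs1, 7.63 for Insig1, 4.54 for Msmo1 and 2.43 for Idi1. Idi1 and Msmo1 stood in the opposite order in KO, but their libraries overlapped in both genotypes, as did those of Sqle and Cyp51 and of Hmgcs1 and Insig1. Msmo1 also overlapped Insig1 and Hmgcs1 in KO. Cyp51 and Hmgcs1, next to each other in both orders, did not overlap in either genotype.

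The count of 6 genes lower at an unadjusted p below 0.05 depended on single libraries. Leaving out wild type 2 gave 3, leaving out wild type 1 or KO 1 gave 4, leaving out KO 3 or wild type 3 gave 5, and leaving out KO 2 gave 6. With wild type 1 and KO 2 both left out it was 4. Hmgcs1, Idi1 and Cyp51 were lower at an unadjusted p below 0.05 in all 6 fits that left out a library, Fdft1 in all but those without KO 1 and without wild type 2, and Insig1 in all but those that dropped wild type 1 or wild type 2. The number of genes with no overlap was 5 under each of the 3 other scalings. Of all rows below an unadjusted p of 0.05, 58.0% were lower in KO, and 46.2% when the libraries were rescaled to their sums without Rn45s, Lars2 and Mir6236, where 5 of the 7 genes were lower at an unadjusted p below 0.05. No scaling or left-out library turned the direction of the 6.

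**Figure D2:**
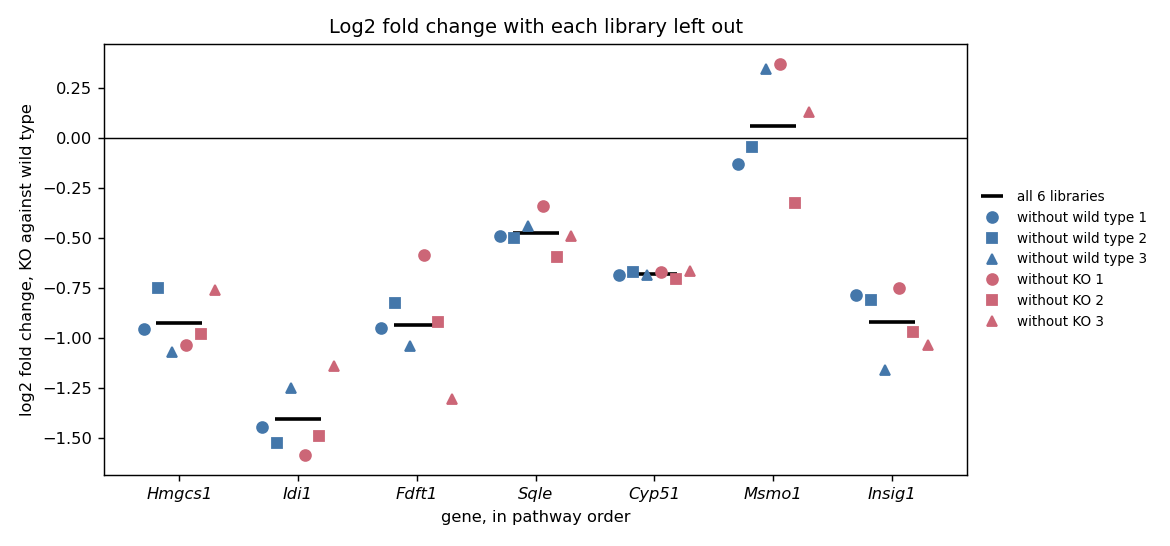
Log2 fold change of each gene, KO mean minus wild-type mean of log2(CPM + 0.5) (vertical axis), with all 6 libraries (black bar) and with each library left out (symbols). Cyp51 stays between −0.70 and −0.67, Fdft1 ranges from −1.30 to −0.59, and Msmo1 lies on both sides of 0, from −0.32 to 0.37.

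Opposite-strand genes cover exons of 4 of the 7 (GENCODE M21). Fdft1 shares 774 exon bases with Ctsb, which encodes the lysosomal protease cathepsin B, and Cyp51 shares 166 with Akap9. Hmgcs1 shares 557 with the antisense gene Gm48342, and Idi1 shares 323 with Gm48574. Ctsb had 1373, 1264 and 980 CPM in the wild-type libraries and 689, 1606 and 1037 CPM in the KO libraries, so KO 1 was lowest for both Ctsb and Fdft1, while KO 2 was highest for Ctsb only. Akap9 had 160, 104 and 105 CPM in the wild-type libraries and 142, 114 and 127 CPM in the KO libraries, with overlapping groups, unlike Cyp51. The counted strand is not known, so reads of the opposite strand cannot be told apart in the rows of Ctsb and Akap9 either. The part of opposite-strand reads in these values was not tested.

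Sqle, Msmo1 and Insig1 have no opposite-strand gene over their exons. Which strand was counted is not known for these rows either. Of these 3, Sqle and Insig1 were lower at an unadjusted p below 0.05, which was so for 4.47% of the 6263 rows with no such gene. The same 2 genes had no overlap between groups, against 6.9% of those rows. The 4 genes with an opposite-strand gene were all lower, against 9.77% of the 3551 rows that have one. The median log2 fold change was −0.47 for the 3 genes and −0.93 for the 4.

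The rest of the pathway was described from fixed lists. Of 5 measured mevalonate and isoprenoid enzymes outside the 7 (of 7 listed), 4 had a lower mean in KO and 1 a higher one, and 2 of the 4 were at an unadjusted p below 0.05. Acat2 stayed there when the libraries were rescaled without Rn45s, Lars2 and Mir6236, and when any 1 library was left out. Acat2, which makes acetoacetyl-CoA for Hmgcs1, had 438 ± 49.3 CPM in the wild-type libraries and 262 ± 52.4 CPM in the KO libraries (SD, n = 3 each), with a log2 fold change of −0.76 (SE 0.21, adjusted p by limma = 0.281) and no overlap. It has no opposite-strand gene over its exons. Fdps, which makes farnesyl diphosphate, had 41.6 ± 5.88 and 26.6 ± 14.1 CPM (SD, n = 3 each) with overlapping groups. Ggps1, which makes geranylgeranyl diphosphate and so leads away from sterols, had 24.6 ± 4.29 and 38.1 ± 13.0 CPM (SD, n = 3 each). Ggps1 shares 257 exon bases with an opposite-strand gene. Without KO 2, Fdps was lower at an unadjusted p below 0.05, and without KO 3, Ggps1 was higher at that p.

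Of 8 measured squalene and sterol ring enzymes outside the 7 (of 9 listed), 3 had a lower and 5 a higher mean in KO, and 0 were at an unadjusted p below 0.05. Their median log2 fold change was 0.18, but −0.13 without KO 2, −0.03 without KO 1 and −0.03 after quantile normalization, where 2 of the 8 were lower at an unadjusted p below 0.05. Lbr, a sterol reductase that also anchors chromatin at the nuclear envelope, had 28.3 ± 8.88 and 16.5 ± 3.04 CPM (SD, n = 3 each). Its groups did not overlap, and it shares 440 exon bases with Dnah14 on the opposite strand. Sc5d and Tm7sf2, a desaturase and a reductase of the sterol ring, showed 0.39 (SE 0.29) and 0.55 (SE 0.60) as log2 fold changes, with overlapping groups.

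Outside the 7, none of the 9 SREBP regulators measured (of 9 listed) was at an unadjusted p below 0.05, and 6 had a lower and 3 a higher mean (5 and 4 under each of the 3 other scalings, 4 and 5 without KO 2). Srebf2, the gene for SREBP2, had 17.6, 13.7 and 12.9 CPM in the wild-type libraries and 7.63, 19.6 and 11.6 CPM in the KO libraries. Its groups overlapped, with KO 1 lowest and KO 2 highest, and the log2 fold change was −0.27 (SE 0.43, adjusted p by limma = 0.833). Insig2, the second INSIG gene, which is not a target of SREBP2, had 18.1 ± 5.91 CPM in the wild-type libraries and 29.0 ± 14.2 CPM in the KO libraries (SD, n = 3 each). Its log2 fold change was 0.57 (SE 0.46, adjusted p by limma = 0.640), opposite in sign to that of Insig1, and the difference between them was not tested. Without KO 3, Insig2 was higher at an unadjusted p below 0.05. Srebf1, for SREBP1, had 59.7 ± 16.3 and 44.7 ± 10.1 CPM (SD, n = 3 each) and shares 109 exon bases with an opposite-strand gene. For Rnf139, a ubiquitin ligase gene whose product acts on this machinery, the log2 fold change was −0.42 (SE 0.20). Rnf139 shares 1140 exon bases with an opposite-strand gene, and without wild type 1 it was lower at an unadjusted p below 0.05.

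Of 9 measured uptake and transport genes (of 10 listed), 5 had a lower and 4 a higher mean (4 and 5 when rescaled without Rn45s, Lars2 and Mir6236, 3 and 6 without wild type 1), and 0 were at an unadjusted p below 0.05. Npc1 and Lipa, which release sterol from lysosomes, showed −0.42 (SE 0.25) and 0.47 (SE 0.34) as log2 fold changes. Npc1 shares 511 exon bases with an opposite-strand gene. Without KO 2, Npc1 was lower at an unadjusted p below 0.05, and without KO 1, Lipa was higher at that p.

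**Figure D3:**
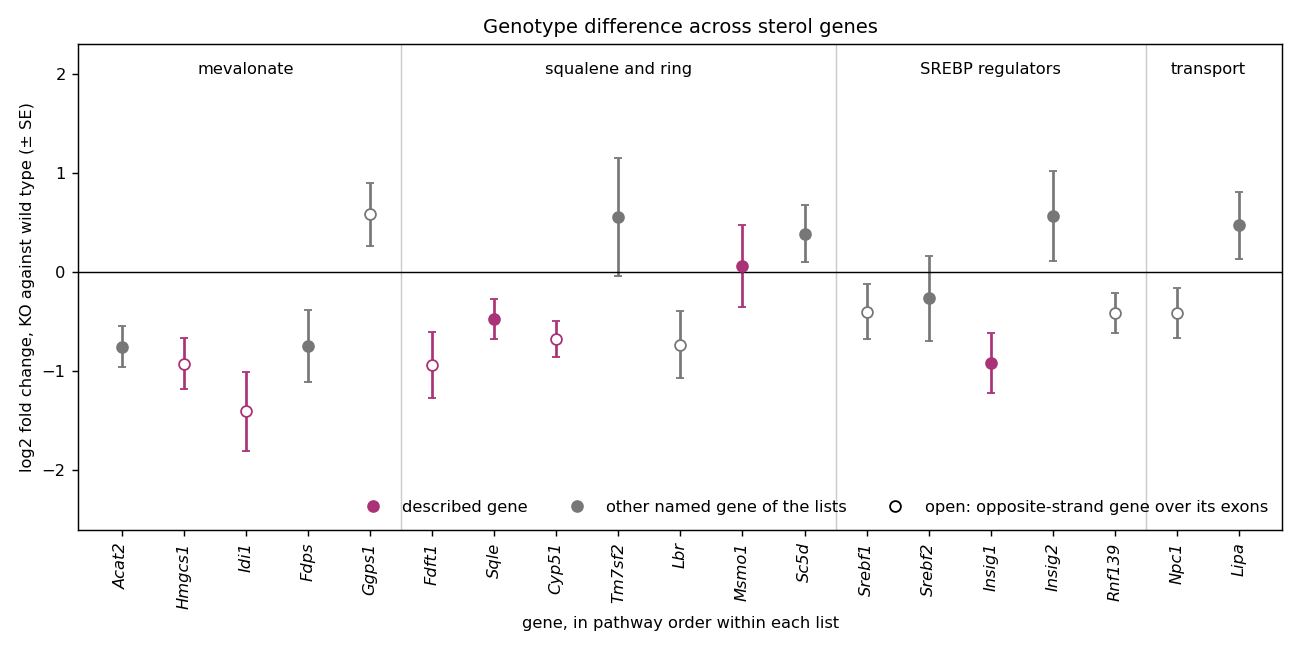
Log2 fold change with its SE (vertical axis), KO against wild type over 3 libraries each, of the 7 genes described (in colour) and of the genes named here from the mevalonate, squalene and ring, SREBP regulator and uptake and transport lists, in pathway order. Open symbols have an opposite-strand gene over their exons. Of the 5 mevalonate enzymes shown 4 lie below 0, all but Ggps1, and the genes of the other lists lie on both sides.

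Of 8 measured genes of sterol efflux and the LXR response (of 10 listed), 5 had a lower and 3 a higher mean. Lpcat3, a phospholipid-remodelling enzyme, was lower at an unadjusted p below 0.05, at 558 ± 60.3 and 372 ± 65.2 CPM (SD, n = 3 each), and shares 334 exon bases with Emg1. It was not below that p without wild type 2 or without wild type 3. Apoe, a lipoprotein that chondrocytes and macrophages secrete, ranged from 26.3 CPM in KO 1 to 3300 CPM in KO 2. Nr1h2, for the receptor LXR-beta, and Ch25h, a sterol hydroxylase, showed 0.77 (SE 0.41) and −0.48 (SE 0.39) as log2 fold changes, with overlapping groups. Ch25h shares 159 exon bases with an opposite-strand gene. Without KO 2, Abca1 and Apoe were also lower at an unadjusted p below 0.05, and without KO 1, Nr1h2 was higher at that p.

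Of 12 measured fatty acid genes under SREBP control (of 16 listed), 8 had a lower and 4 a higher mean. Me1, which supplies NADPH, was the only 1 at an unadjusted p below 0.05, and it was higher in KO, at 16.8 ± 8.78 and 39.6 ± 10.1 CPM (SD, n = 3 each), and it shares 30 exon bases with an opposite-strand gene. Without KO 1, Me1 was not below that p, and without KO 3 the list had 5 lower and 7 higher means. For Acly, Scd2 and Fads2 the log2 fold change was −0.28 (SE 0.20), −0.57 (SE 0.37) and −1.97 (SE 1.11). Without KO 2, Scd1, Scd2 and Fads2 were lower at an unadjusted p below 0.05.

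Of 9 measured genes that draw isoprenoids away from sterols (of 12 listed), 2 had a lower and 7 a higher mean, with a median of 0.42. Pdss1, which builds the tail of coenzyme Q, was lower at an unadjusted p below 0.05, at 95.4 ± 13.0 and 56.0 ± 10.7 CPM (SD, n = 3 each), and it shares 207 exon bases with an opposite-strand gene. Dpm1, a dolichol-phosphate mannose synthase subunit, was higher at an unadjusted p below 0.05, but it was at 0 CPM in wild type 1 and 26.7 CPM in wild type 2, and its groups overlapped. Leaving out wild type 1, wild type 3 or any KO library ended this. The farnesyltransferase subunits Fnta and Fntb showed 0.56 (SE 0.33) and 1.48 (SE 0.73) as log2 fold changes. Without wild type 3, Fntb was higher at an unadjusted p below 0.05. Across all enzymes of sterol synthesis outside the 7, 2 of 13 measured (of 16 listed) were lower at an unadjusted p below 0.05 and 0 were higher, with a median log2 fold change of −0.18. The number lower was 4 after quantile normalization and 1 when rescaled without Rn45s, Lars2 and Mir6236. The median of these 13 moved with single libraries: leaving out wild type 1, 2 or 3 gave −0.72, −0.53 or −0.07, and leaving out KO 1 or KO 2 gave −0.33 or −0.58.

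The 3 KO libraries differed from one another in other lipid and macrophage genes. KO 1 was below the lowest wild-type library for 7 of the 7 genes, and KO 2 and KO 3 for 6 each. Their median log2 distance from the wild-type mean over the 7 genes was −0.75, −0.81 and −0.68. Cyp51 was at 61.5%, 64.2% and 61.0% of the wild-type mean in KO 1, 2 and 3, and Msmo1 at 63.8%, 171.5% and 90.4%. In the same libraries Fdps was at 51.4%, 102% and 38.2%. Abca1, the sterol exporter, was at 39.3%, 155% and 51.1%, and Scd1 at 46.0%, 225% and 25.9%. KO 2 was thus the highest KO library for Msmo1, Fdps, Abca1 and Scd1, and by a small margin for Cyp51. It was also the highest for Sqle, at 84.9% against 59.4% in KO 1 and 73.3% in KO 3. For Hmgcs1, Idi1, Fdft1 and Insig1, KO 2 lay between the other KO libraries. Abca1 and Scd1 were picked after their values were seen.

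**Figure D4:**
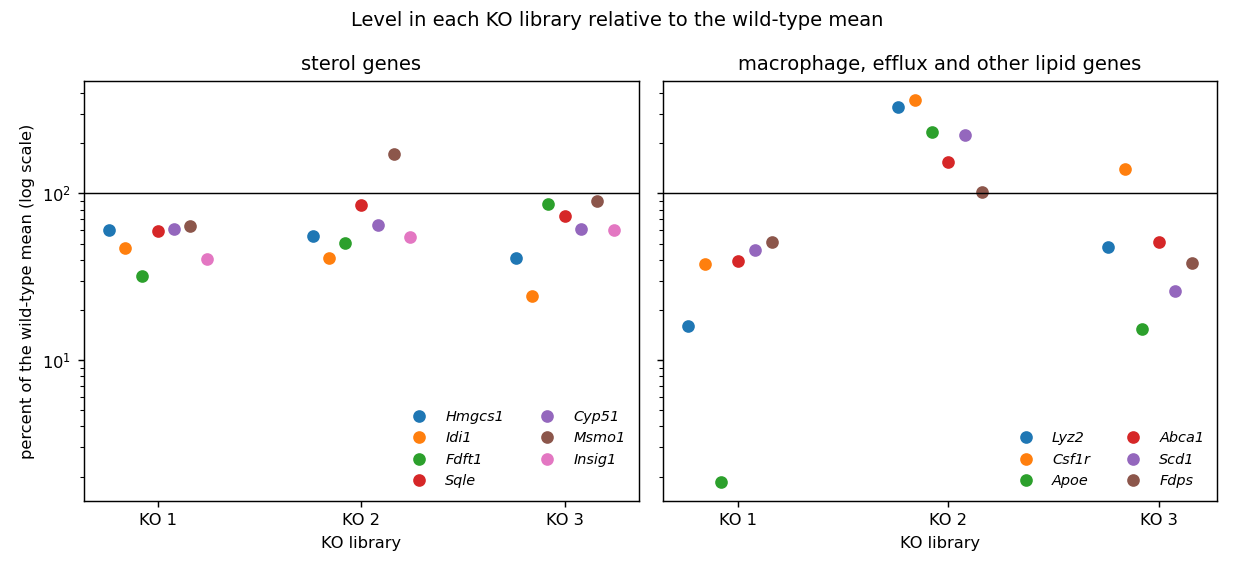
Level in each KO library as a percent of the wild-type mean (vertical axis, log scale; the line is 100%) for the 7 genes (left) and for 6 macrophage, efflux and other lipid genes (right). On the left 20 of 21 points lie below the line, all but Msmo1 in KO 2, and on the right KO 2 lies above it for all 6 genes.

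Cell type markers differed between the genotypes or in single libraries. The summed level of 15 of 15 macrophage and leukocyte markers was 5257 to 6244 CPM in the wild-type libraries and 1059 to 15129 CPM in the KO libraries, highest in KO 2, and none was at 0 in any library. Lyz2 gave 12165 CPM of the sum in KO 2. Without Lyz2 the sums were 1609 to 2481 CPM in wild type and 465, 2964 and 1746 CPM in KO 1, 2 and 3. Of the 15 markers, 14 had their highest KO level in KO 2 and 11 were above all wild-type libraries there, while all 15 were below them in KO 1. On the log scale 13 of the 15 had a lower mean in KO, and Mrc1, a mannose receptor, was the 1 at an unadjusted p below 0.05, with 447, 669.7 and 361 CPM in the wild-type libraries and 63.7, 212 and 249.6 CPM in the KO libraries. The summed level of 14 of 18 chondrocyte markers was 2661 to 4052 CPM in the wild-type libraries and 4102 to 7628 CPM in the KO libraries. Of 12 proliferation genes 11 were measured, with 1676 to 1953 CPM in the wild-type libraries and 882 to 1276 CPM in the KO libraries, and of 10 mural markers 8, with 650 to 738 and 290 to 502 CPM. The summed levels did not overlap between the groups in these 3 lists, as the levels did not in 6 of the 7 sterol genes. Single markers went both ways. On the log scale 6 mural markers had a lower and 2 a higher mean in KO, with 5 lower and 1 higher at an unadjusted p below 0.05. Of the chondrocyte markers, 12 had a higher and 2 a lower mean, and all 11 proliferation genes had a lower one. The part of these 3 lists in the sterol values was not tested.

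The summed levels of the fibroblast, osteoblast, adipocyte and endothelial lists overlapped between genotypes, but single markers of the first pair of lists did not. Fibroblast markers (9 of 10 measured) summed to 8673 to 10517 CPM in the wild-type libraries and 6776 to 10102 CPM in the KO libraries. On the log scale 4 of the 9 had a lower and 5 a higher mean, with a median log2 fold change of 0.19. The 4 were lower at an unadjusted p below 0.05, as were 6.4% of all rows, and 0 were higher. Groups did not overlap in 3 with KO lower, as in 9.57% of all rows, and in Fn1 with KO higher. Osteoblast markers (7 of 8) summed to 5344 to 7382 and 6720 to 19947 CPM, a sum to which Spp1 gave 17015 CPM in KO 2. All 7 had a higher mean of log2 values in KO, but Runx2 and Spp1 were about the same, with log2 fold changes of 0.0058 and 0.02. Spp1 had 2806 and 3093 CPM in KO 1 and KO 3, below the wild-type libraries at 4689 to 6321 CPM. Ibsp and Bglap2 were higher at an unadjusted p below 0.05, as were 4.64% of all rows. Ibsp, Bglap and Bglap2 had no overlap with KO higher, as had 899 of all 10189 rows. Bglap and Bglap2 were at 0 CPM in all 3 wild-type libraries, so they passed the filter on low genes only through KO. Their lack of overlap follows in part from that filter. Ibsp, bone sialoprotein, had 858, 1659 and 526 CPM in the wild-type libraries and 3620, 2628 and 3614 CPM in the KO libraries. The part of these markers in the sterol values was not tested. Of 8 adipocyte markers 3 were measured, with 107 to 232 and 145 to 299.7 CPM; Adipoq, Lep, Plin1, Cidec and Cfd have no row, and Pparg was at 0 in 4 of 6 libraries. Of 6 endothelial markers, Pecam1 and Cdh5 were measured, with summed levels of 11.3 to 34.0 and 0 to 43.6 CPM, and both were at 0 in KO 1 and KO 3.

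Among themselves, the genes varied together to different degrees across the 6 libraries. The Pearson r of a gene with the mean z-score of the other 6 was 0.94 for Sqle and for Cyp51, 0.80 for Insig1, 0.76 for Idi1, 0.74 for Hmgcs1, 0.71 for Fdft1 and 0.03 for Msmo1. These values hold the genotype difference itself and the shared scaling of each library, and they are descriptions. Of 8689 other genes with a mean of at least 10 CPM, the 8 whose log2 level was most like the mean z-score of the 7 over the 6 libraries included Kansl1l, Angpt2, Nap1l1, Gpr183, Wbp1, Dtx3 and Kif2a, and their r ranged from 0.986 to 0.996. Angpt2, which encodes angiopoietin-2, had 135 ± 9.89 CPM in the wild-type libraries and 53.6 ± 14.0 CPM in the KO libraries (SD, n = 3 each). Gpr183, a receptor for oxysterols, had 70.8 ± 2.08 CPM in the wild-type libraries and 27.5 ± 6.01 CPM in the KO libraries (SD, n = 3 each). The mean z-score of the 7 was 0.58 to 0.75 in the wild-type libraries and −1.07 to −0.27 in the KO libraries. The lower KO levels of genes picked for likeness to it therefore follow from the choice. A link of these genes to sterols was not tested.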

How the data were processed

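The authors deposited a table of signal values, TMM-scaled CPM of genes left after a filter on low ones, as the table's name says. Each row's second highest value was at least 7.35 CPM. Per the submitters' processing notes, the tools named are HISAT2 2.1.0, StringTie 1.3.5, cutadapt 1.18, edgeR and bcl2fastq, and the build was mm10. The sources used here do not give each tool's role, the annotation or the strand setting. Of the values, 100% were whole multiples of 1 read's worth (tolerance 0.001 reads; 0.382 to 0.762 CPM), so reads were recovered. Of the 6 columns 5 matched a sample's title, that of KO 3 differs from its title by 1 character (the letter O for a zero), and 0 were left unmapped.

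The test was that of limma 3.58.1 under R 4.3.3, two-sided, on log2(CPM + 0.5) of all 10189 rows, with an intensity trend and Benjamini-Hochberg adjustment. A fit on recovered reads used edgeR 4.0.16, DESeq2 1.42.0 or limma-voom. The fixed design had assumed CPM. The procedure was tested on simulated data. Exons, 3′ UTRs and opposite-strand genes came from GENCODE M21 (9814 rows matched, 96.3%), and promoters and the miRNA from RefSeq GRCm38.p6. Other steps ran in Python 3.11.15 (pandas 2.3.3, numpy 2.4.6, scipy 1.17.1), with plots by matplotlib 3.10.9.

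The genes and lists were chosen with earlier results of these data known. Named were the 7 genes, per list up to 4 others of smallest p, 4 genes whatever their p (Srebf2 and Insig2 among them), the 8 genes most like the 7, and up to 3 markers per list; some genes this rule names are not reported here. Ctsb, Akap9, Abca1, Scd1, Bglap, Bglap2, Rn45s, Lars2, Mir6236, Tsix, Xist, Gapdh and Actb were added after values were seen. So were the fits of the other pathway lists without single libraries. Chi-square per degree of freedom was taken between the reads of replicates of the same group, over all rows, Rn45s among them. It was 215 and 190 for the pairs with wild type 1 and 10.5 to 33.7 for the other pairs. Each pair of replicates thus differed by more than sampling noise over all rows. The part of Rn45s in this was not tested. Tried as alternatives were other pseudocounts, a filter, 3 scalings, limma settings, the count tests, a block on the replicate number, and left-out libraries.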

Additional observations from a re-analysis of the deposited data

How the results depend on the processing

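Across the alternatives 0 of the 7 genes had an adjusted call in any fit (for DESeq2, 0 of the 4 with an adjusted p), and Hmgcs1, Idi1, Fdft1, Sqle, Cyp51 and Insig1 were lower in KO in each. The median log2 fold change of −0.92 became −0.80 with a filter at a mean of 20 CPM, which drops Idi1, −0.75 after quantile normalization, −0.83 with edgeR, −0.82 with DESeq2, −0.84 without wild type 1 and KO 2 together, and −0.47 over the 3 genes with no opposite-strand gene, a subset chosen after the data were seen. The cause of the other shifts was not tested. Leaving out single libraries gave medians of −1.04 to −0.67 and 3 to 6 genes lower at an unadjusted p below 0.05. Of all rows, 384 to 795 were lower in those fits. With no trend in limma 4 of the genes were lower at that p, as were 505 rows. Msmo1 (0.06) turned to −0.0034 with limma-voom and −0.51 without wild type 1 and KO 2, and ranged from −0.32 to 0.37 with single libraries left out, being −0.13 without wild type 1 and −0.04 without wild type 2. Without KO 2, limma called 25 rows lower and 7 higher at an adjusted p below 0.05, against 1 and 0 with all libraries. Overlap between groups has no value for settings that change only the test. Both motif windows, which are set by the RefSeq start and not by the most upstream start, gave 2, 5 and 5 genes.

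With the replicate number as a block (replicate block), 5 genes were lower at an unadjusted p below 0.05, the median stayed at −0.92, and 0 rows had an adjusted call. Samples with the same number correlated at r = 0.02, 0.07 and −0.06 in their deviations from the group means. Samples with different numbers correlated at −0.10 to 0.09. The numbers thus gave no sign of pairing, but so few libraries cannot exclude it. Depth was lowest for Idi1, at 9 to 48 reads per library.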
